A study of Mus musculus with 2 samples.

Results

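The replication-dependent histone genes are 67 protein-coding genes, of 21938 coding genes on chromosomes 1 to 19, X and Y, whose symbols in GENCODE mouse release 21 begin with Hist1h, Hist2h, Hist3h or Hist4. They were chosen by symbol alone, with earlier results of these data known, and no measured value entered the rule. They encode 6 linker histones H1, 18 H2A, 18 H2B, 12 H3 and 13 H4. Of the 67 genes, 54 stand in 2 blocks of the Hist1 cluster on chromosome 13, called proximal (23 genes, 21715763 to 22043676) and distal (31 genes, 23531050 to 23934851) by their coordinates. Hist2 on chromosome 3 (96219865 to 96270132) holds 10 genes, Hist3 on chromosome 11 holds 2, and Hist4h4 stands alone on chromosome 6. The chromatin was that of whole cerebellum of male B6CASTF1/J mice, 8 to 10 months old, whose name gives a B6 by CAST cross. The labels name no treatment. There were 2 DNase-seq libraries in 1 group, biological replicates 1 and 2, each from a pool of 2 cerebellum biosamples. It is not stated that the pools came from different animals, and spread between the replicates could therefore be technical in part. With 1 group no test between conditions was possible, and values of each replicate are set beside those of all coding genes. Coordinates are those of the mm10 (GRCm38) assembly.

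Every S phase needs new histones to package the copied DNA, and most of that supply comes from these genes. They lie in clusters, have no introns in the classical form of their transcripts, and make mRNAs that end in a stem-loop instead of a poly(A) tail. H2A, H2B, H3 and H4 build the nucleosome core, and H1 binds the linker DNA. Many H2A and H2B genes stand head to head and share the promoter between them. Factors known to act there are NPAT and CASP8AP2 at the histone locus body, HINFP at H4 promoters, POU2F1 at the octamer of H2B promoters and NF-Y at CCAAT boxes. Most neurons of the adult cerebellum no longer divide.

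DNase I cuts accessible DNA, and the authors' peaks mark stretches with many cuts. Footprints are short protected stretches within cut DNA (median 10 bp in each replicate). A gene had a start peak or start footprint where one overlapped the 1 kb on either side of any annotated transcript start. Start signal is the authors' signal of the strongest start peak in their stricter list, and 0 where there was none. Signal moved in whole steps within each library, and if a step is 1 cut the median peak held 196 cuts in replicate 1 and 152 in replicate 2, a counting error of 7.14% and 8.11%. The stricter lists held 61776 and 71141 peaks, and the footprint lists 314116 and 320832 footprints. All 8 granule cell markers had a start peak in both replicates (Cbln3 12.2 and 9.99), as did En2 of the hindbrain, against 0 of 3 microglia, 0 of 3 testis and 0 of 2 forebrain markers. Of the latter, Tbr1 had peaks in both longer lists, and 1 and 5 footprints. For Purkinje cells and astrocytes it was 1 of 3 each, and for vessels 0 of 2. Pcp2, Aldh1l1, Aif1 and Cldn5 had no peak of either list. The part of any of these cells in the results was not tested. Signal of a mixed tissue sums over its cells, so fewer cells with an open start and fewer cuts per cell cannot be told apart.

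Histone gene starts were open at most of the 67 genes. In replicate 1 a start peak was present at 53 genes and in replicate 2 at 53, or 79.1% in each, against 58.4% and 57.2% of all coding genes. In both replicates 51 genes (76.1%) had one, against 55.9% of coding genes. In the authors' longer list 55 genes had one in both, against 60.5%. Start footprints were found at 55 genes in replicate 1 (61.7% of coding genes) and at 59 in replicate 2 (59.6% of coding genes), and at 55 in both (58.5% of coding genes). Intervals with a cut rate at a false discovery rate (FDR) under 0.05 were listed at the starts of 56 and 59 genes, against 64.2% and 63.5% of coding genes. Neighbours share peaks in clusters this dense. The 53 genes of replicate 1 drew on 69 distinct start peaks, 22 of which served 2 or 3 genes, and those of replicate 2 on 68, with 23 shared. Counting each peak for the nearest coding start alone left 41 genes (61.2%) with a start peak in both replicates, against 51.8% of all coding genes under that rule.

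**Figure D1:**
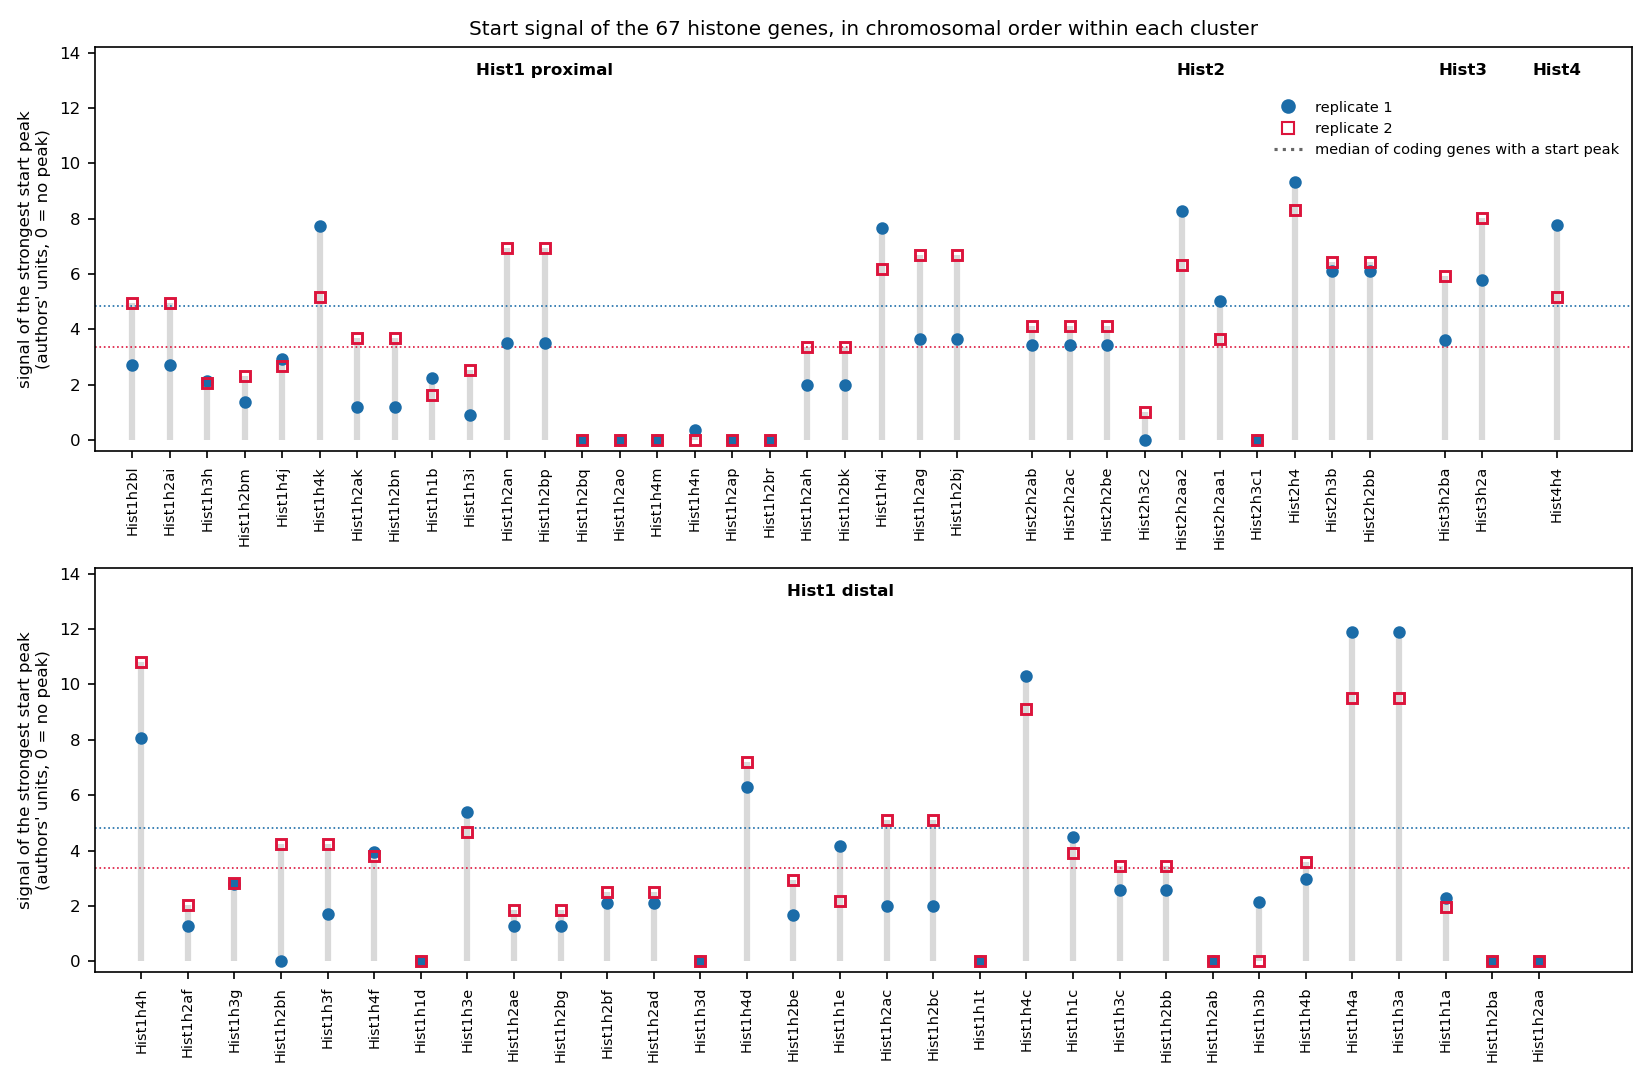
Signal of the strongest start peak (authors' units, 0 where there was no peak) of each of the 67 genes, with replicate 1 as filled circles and replicate 2 as open squares, in chromosomal order within each cluster. Dotted lines are the medians of coding genes with a start peak, 4.83 in replicate 1 and 3.38 in replicate 2. H4 genes reach the highest values, neighbours that share a peak have equal values, and a run of 6 genes in the proximal block lies at or near 0.

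With all clusters pooled, H4 genes had the highest median start signal of the histone types. Of 13 H4 genes, 11 had a start peak in both replicates, and the median start signal over all 13 was 7.68 in replicate 1 and 5.18 in replicate 2. The medians were 2.06 and 3.67 for H2A, 1.99 and 3.57 for H2B, 2.14 and 2.68 for H3, and 2.26 and 1.79 for H1. In the proximal Hist1 block alone, H4 had the highest median in replicate 1 (2.93). In replicate 2 its 2.66 there was below the 3.69 of H2A and 3.52 of H2B. Over all 67 genes they were 2.28 and 3.60, against 1.55 and 1.04 over all coding genes, those at 0 included. Over genes with a peak they were 2.97 and 4.11, against 4.83 and 3.38. Start peaks in both replicates were found at 14 of 18 H2A, 14 of 18 H2B, 8 of 12 H3 and 4 of 6 H1 genes.

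The H4 gene Hist1h4a (chromosome 13, 23760692 to 23761230) had start signals of 11.9 in replicate 1 and 9.51 in replicate 2, with a mean of 10.7 ± 1.69 (SD, n = 2, as for all means here). In replicate 1 this was above 95.8% of coding genes. Its neighbour Hist1h3a, an H3 gene, had the same values because the same peak reached its window, with the peak's middle 1056 and 1076 bp downstream of the Hist1h3a start. Hist1h4c (chromosome 13, 23697635 to 23698454) had 10.3 and 9.10. Hist1h4h (chromosome 13, 23531050 to 23531519) had 8.07 and 10.8, so the order of these leading H4 genes differed between the replicates. Means further down were 8.81 ± 0.709 at Hist2h4, 6.93 ± 1.05 at Hist1h4i, 6.74 ± 0.635 at Hist1h4d and 6.47 ± 1.83 at Hist4h4. Hist1h4k had 7.72 and 5.17. From Hist1h4i to Hist1h4k these neighbours in the order differ by less than their spread. The remaining H4 genes with a peak in both replicates were Hist1h4f at 3.89 ± 0.0963, Hist1h4b at 3.28 ± 0.444 and Hist1h4j at 2.80 ± 0.193. The mean of Hist1h4j joins different peaks. Over its start the peaks had 2.93 in replicate 1 and 1.91 in replicate 2, and upstream of it 2.06 and 2.66.

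H4 promoters are known for a proximal element, called site II, that HINFP binds at a GGTCCG core. The core, searched on both strands, stood in 11 of 12 H4 promoters of the RefSeq table (250 bases before to 50 after the start), or 91.7%, against 10.6% of 17491 coding promoters. Hist2h4 is not in that table, and Hist1h4a was the H4 gene without the core. The 30 bases around each core follow, read 5' to 3' on the strand of the gene, since they are the element that H4 genes share, with the core in capitals.

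Hist1h4b (chr13:23756931-23756960, plus strand): agttctcaaccaGGTCCGataagagcctat
Hist1h4c (chr13:23698487-23698516, minus strand): agttttcaaccaGGTCCGcagaaggcctat
Hist1h4d (chr13:23581509-23581538, plus strand): ggttttcaaacaGGTCCGcattggtattat
Hist1h4f (chr13:23551697-23551726, minus strand): agtcctctaaaaGGTCCGcattcgccatat
Hist1h4h (chr13:23531027-23531056, plus strand): agtcttcaatcaGGTCCGaaaacactgcat
Hist1h4i (chr13:22041391-22041420, minus strand): tgttttcactccGGTCCGcaagttccctat
Hist1h4j (chr13:21735004-21735033, plus strand): ggttctcatttcGGTCCGcccgctacagta
Hist1h4k (chr13:21750568-21750597, minus strand): ggttctcatttcGGTCCGcccgccgcagta
Hist1h4m (chr13:21811687-21811716, plus strand): tgttttcactccGGTCCGcaagttccctat
Hist1h4n (chr13:21832226-21832255, minus strand): tgttttcactccGGTCCGcaagttccctat
Hist4h4 (chr6:136804446-136804475, minus strand): tgttttcaatcaGGTCCGctcccaggaaat

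Footprints lay over this core at 9 of the 11 genes in at least 1 replicate, where 1 shared base counts as covered. Footprints of both replicates did so at 6 genes, namely Hist1h4c, Hist1h4d, Hist1h4f, Hist1h4i, Hist1h4k and Hist4h4. In replicate 1 alone it was covered at Hist1h4b and Hist1h4j, and in replicate 2 alone at Hist1h4h. Neither replicate had a footprint over it at Hist1h4m and Hist1h4n, whose 30 bases are the same as those of Hist1h4i. Over coding promoters with a peak in both replicates, 28.9% of the cores were covered in both. In Hist1h4c, Hist1h4f, Hist1h4i and Hist1h4n the core began 46 bases before the RefSeq start, and in Hist1h4d and Hist1h4m 47. It began 32 bases before it in Hist1h4k and Hist4h4, 18 in Hist1h4j and 5 in Hist1h4h. In Hist1h4b it began 6 bases after the RefSeq start. The promoters of Hist1h4c and Hist1h4a are shown with the bases under a footprint of both replicates in capitals, because they had the highest H4 signal and differ in their elements.

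Hist1h4c (chr13:23698459-23698708, minus strand): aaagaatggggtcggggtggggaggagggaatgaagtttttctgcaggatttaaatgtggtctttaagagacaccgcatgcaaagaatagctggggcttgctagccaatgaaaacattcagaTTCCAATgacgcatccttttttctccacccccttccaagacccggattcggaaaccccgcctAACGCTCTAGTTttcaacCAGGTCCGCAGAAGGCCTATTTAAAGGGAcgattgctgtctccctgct
Hist1h4a (chr13:23761250-23761499, minus strand): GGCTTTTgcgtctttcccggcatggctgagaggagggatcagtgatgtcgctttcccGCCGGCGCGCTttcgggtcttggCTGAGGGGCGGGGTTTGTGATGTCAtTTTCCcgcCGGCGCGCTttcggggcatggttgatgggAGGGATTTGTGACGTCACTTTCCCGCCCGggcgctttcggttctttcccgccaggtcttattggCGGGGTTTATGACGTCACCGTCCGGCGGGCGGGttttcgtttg

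Hist1h4c had 48 of these 250 bases in footprints of both replicates, and the stretch over its site II core ran on towards the start. Hist1h4a had 119 such bases. Its promoter held 2 cAMP response elements (TGACGTCA, bound by CREB and ATF factors), at -98 and -34 from the start, 4 matches to the E2F letters TTTCCCGC and GGGCGG boxes of SP factors. Both elements, 3 of the 4 E2F matches and the GGGCGG boxes at -165, -85 and -17 were covered in both replicates. The box at -85 overlaps an E2F match. Hist1h4a was the sole histone gene with TTTCCCGC in its promoter (1.61% of 62, against 1.43% of coding promoters), and TTTGGCGC, another E2F form, matched none of the 62 (0.663% of coding promoters). The strong start of Hist1h4h likewise held a covered TGACGTCA at -70.

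Many H2A and H2B genes were open at a promoter they share. The annotation gave 13 head-to-head pairs with starts within 1000 bp, 12 of them an H2A with an H2B gene, at a median distance of 268 bp between starts (176 to 660). A peak lay between the starts in both replicates at 8 pairs, all H2A with H2B, and its signal was higher in replicate 2 at all 8, with medians of 2.42 in replicate 1 and 4.53 in replicate 2. Start signal was higher in replicate 2 at 6.36% of coding genes with a start peak in both. These 8 pairs hold 16 of the 28 H2A and H2B genes with a start peak in both replicates, and the genes with the highest means, Hist2h2aa2 (7.30), Hist3h2a (6.91) and Hist2h2bb (6.27), are not among them. The pair with the highest mean was that of Hist1h2an and Hist1h2bp (chromosome 13, 21786826 to 21789213), with 3.50 and 6.95. Hist1h2ag and Hist1h2bj had 3.64 and 6.69. Between Hist1h2ae and Hist1h2bg, and between Hist1h2bh and the H3 gene Hist1h3f, a gap peak was present in replicate 2 alone, with 1.85 and 1.28. The other 3 pairs had none in either replicate. The DNA between the starts of Hist1h2ag and Hist1h2bj is shown as the pair with a cAMP response element, and the promoter of Hist3h2a as that of the H2A gene with the highest mean after Hist2h2aa2. Capitals mark bases under a footprint of both replicates.

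Hist1h2ag to Hist1h2bj (chr13:22042950-22043197, plus strand): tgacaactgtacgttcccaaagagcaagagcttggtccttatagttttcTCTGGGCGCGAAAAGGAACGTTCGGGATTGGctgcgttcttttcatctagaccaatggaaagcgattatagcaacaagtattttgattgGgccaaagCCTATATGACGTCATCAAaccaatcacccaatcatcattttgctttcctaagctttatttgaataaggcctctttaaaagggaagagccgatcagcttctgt
Hist3h2a (chr11:58954435-58954684, plus strand): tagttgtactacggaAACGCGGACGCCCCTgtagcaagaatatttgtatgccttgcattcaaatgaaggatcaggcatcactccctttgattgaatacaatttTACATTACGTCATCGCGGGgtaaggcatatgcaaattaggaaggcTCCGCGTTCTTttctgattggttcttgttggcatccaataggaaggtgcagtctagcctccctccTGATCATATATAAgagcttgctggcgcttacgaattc

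Between Hist1h2ag and Hist1h2bj, 50 of 248 bases were in footprints of both replicates, and TGACGTCA lay under one of them, 160 bases before the RefSeq start of Hist1h2ag and 96 before that of Hist1h2bj. Hist3h2a had start signals of 5.80 and 8.02 and its neighbour Hist3h2ba 3.63 and 5.94. Both Hist3 genes were lower in replicate 1. In Hist2, the duplicated H2A genes Hist2h2aa2 and Hist2h2aa1 had 8.27 and 6.33, and 5.02 and 3.65. Hist2h2ab, Hist2h2ac and Hist2h2be read the same peak, with 3.43 and 4.11, and Hist2h2bb and the H3 gene Hist2h3b another, with 6.11 and 6.43. The latter lay over the RefSeq start of Hist2h2bb, and peaks over the Hist2h3b start itself had 2.63 and 2.80. Likewise, the peak read by Hist2h2ab lay over the Hist2h2ac start, and peaks over the Hist2h2ab start had 2.36 and 3.19. In this cluster 3 of 8 genes with a peak in both replicates were higher in replicate 1, with a median log2 ratio of -0.07.

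By median start signal, H3 and H1 genes were lower than H4 genes. In the Hist1 blocks the highest H3 start signal was that of Hist1h3e (chromosome 13, 23561534 to 23562369), with 5.41 and 4.67. This leaves out Hist1h3a, which reads the Hist1h4a peak. Over the Hist1h3a start itself, replicate 2 had a peak of 2.88, and replicate 1 one of 1.12 in the longer list alone. Hist1h3g had 2.80 and 2.82, and Hist1h3h 2.13 and 2.07, both nearly equal between replicates, while Hist1h3i had 0.899 and 2.53. Among the H1 genes, Hist1h1e had 4.16 and 2.19, Hist1h1b 2.23 and 1.63, and Hist1h1a 2.28 and 1.95. Hist1h1c had 4.48 and 3.93, but its strongest peak lay 973 and 1003 bp downstream of the start, and peaks over the start itself had 3.08 and 1.69. Hist1h1d had no start peak at the start that GENCODE gives. RefSeq puts its start within the GENCODE gene span, and stricter peaks of both replicates lay over that position, with 1.63 and 1.26. By RefSeq promoters, 5 of 6 H1 genes had a peak in both replicates. Of 6 H1 promoters 5 held the AAACACA box known from H1 genes (83.3%, against 6.22% of coding promoters), and footprints of both replicates touched it at Hist1h1b alone, where they share its last base only. In coding promoters with a peak in both, 11.5% of such boxes were touched in both. The promoter of Hist1h1b is shown to place the box beside that footprint, with capitals again for bases under footprints of both replicates.

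Hist1h1b (chr13:21780626-21780875, minus strand): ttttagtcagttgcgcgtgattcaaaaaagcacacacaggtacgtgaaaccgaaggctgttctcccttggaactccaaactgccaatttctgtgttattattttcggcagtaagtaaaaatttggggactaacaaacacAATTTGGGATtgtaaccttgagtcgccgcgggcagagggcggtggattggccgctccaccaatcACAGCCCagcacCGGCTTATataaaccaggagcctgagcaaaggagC

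Promoters of these genes were rich in CCAAT and TATA boxes and poor in GC. Of 62 promoters in the RefSeq table, 53 (85.5%) held CCAAT against 39.0% of coding promoters, 35 (56.5%) held TATAAA against 13.3%, and 14 (22.6%) held the octamer ATTTGCAT against 1.67%. GGGCGG stood in 24 (38.7%), against 45.9%. Hist1h3a, Hist1h3f, Hist1h2bc, Hist2h2be and Hist2h4 are not in the table, and the windows of head-to-head pairs overlap, so the promoters are not independent. By type, CCAAT stood in every H1, H2A, H2B and H3 promoter of the table but in 3 of 12 H4 promoters. The octamer was found in 7 of 18 H2A and 7 of 16 H2B promoters and in no H1, H3 or H4 promoter. Median GC content was 45.3%, against 56.3% over coding promoters.

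Many of these boxes carried no footprint. In histone promoters with a peak in both replicates, a footprint of both covered 19 of 106 CCAAT matches (17.9%, against 28.9% in all coding promoters with such a peak). It covered 11 of 30 TATAAA matches (36.7%, against 16.8%), 2 of 9 octamers (22.2%, against 13.4%) and 16 of 28 GGGCGG matches (57.1%, against 63.0%). All 5 TGACGTCA matches were covered, against 92.0%, counting the one shared by Hist1h2ag and Hist1h2bj for each. In H4 promoters 11 of 13 GGGCGG matches were covered. Around the starts of H4 genes, 38.3% of the 100 bases upstream lay in a footprint in replicate 1 and 39.3% in replicate 2. The shares were 27.0% and 25.8% for H1, 17.3% and 20.3% for H2A, 10.5% and 19% for H2B and 15.4% and 15.9% for H3, and over all 67 genes 20.1% and 23.4%. H4 promoters had the highest share of the types in both replicates, near that of other coding promoters with a peak in both (36.4% and 35.4%). All other coding promoters had 17.7% and 16.9%.

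**Figure D2:**
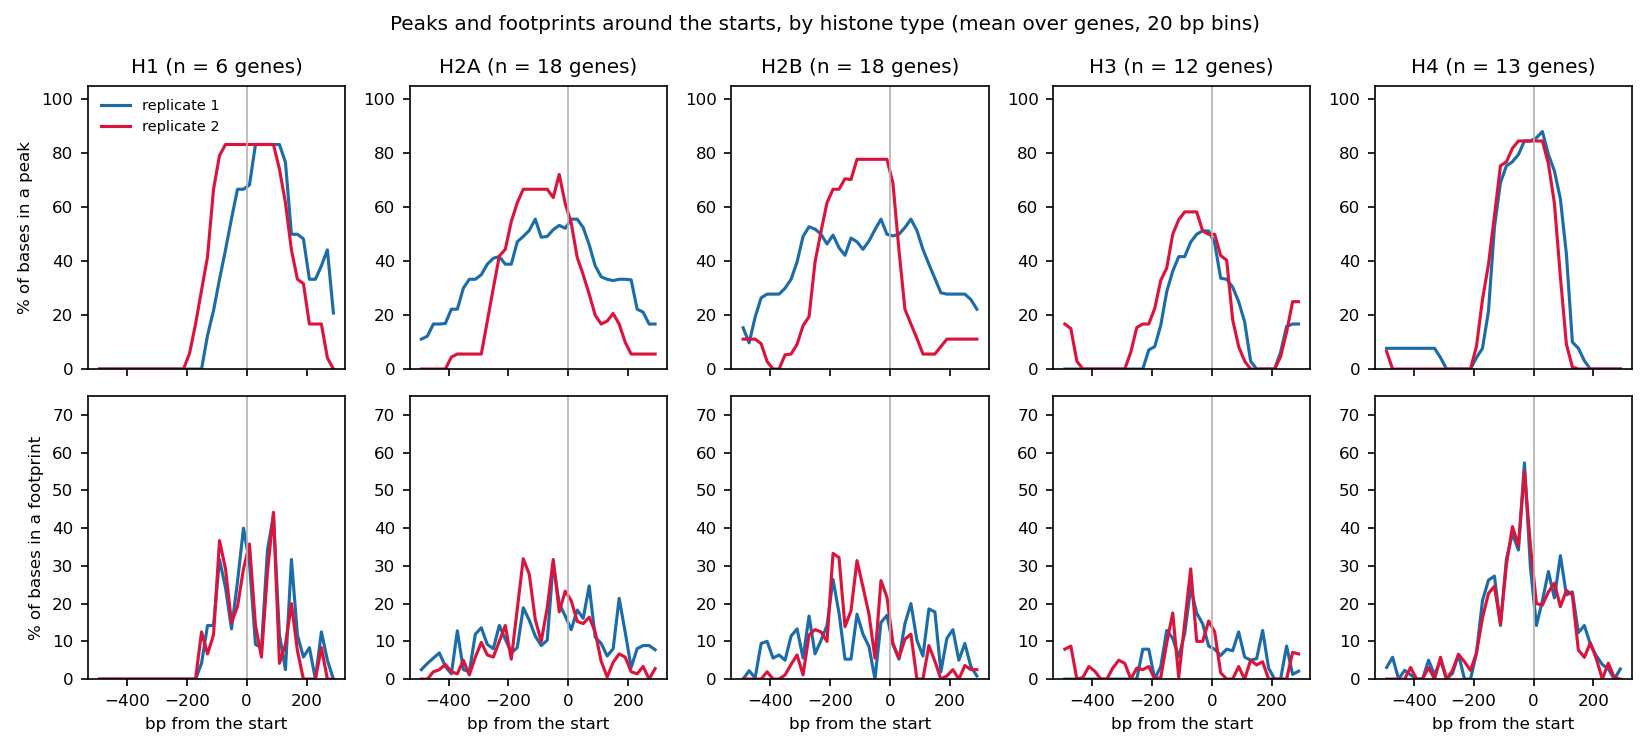
Share of bases in a stricter peak (top, %) and in a footprint (bottom, %) by distance from the start (bp), as means over the genes of each histone type in bins of 20 bp, for replicate 1 (blue) and replicate 2 (red). At H4 genes the replicates are close in the 100 bases upstream (80.2% and 82.5% in a peak) and part on the flanks, whereas at H2A and H2B genes peaks of replicate 2 are more frequent in the 100 bases upstream and those of replicate 1 spread over both sides.

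The replicates did not rank histone starts alike. Among coding genes with a start peak in both, signal was higher in replicate 2 at 6.36%, and the median log2 ratio of replicate 1 to replicate 2 was 0.55. Among the 51 histone genes with a peak in both, 34 were higher in replicate 2, and the median log2 ratio was -0.26. The direction differed by type: all 14 H2B genes and 12 of 14 H2A genes were higher in replicate 2, all 4 H1 genes were higher in replicate 1, H4 genes split 8 to 3 in favour of replicate 1, and H3 genes 3 to 5. The 2 H2A genes higher in replicate 1 were Hist2h2aa1 and Hist2h2aa2. Histone genes listed as replication-independent, read from the same libraries, were higher in replicate 1 at 9 of 11. Genes that share a promoter share a value, so these counts hold fewer independent starts than genes. With each peak counted for its nearest start alone, 23 of 41 genes (56.1%) were higher in replicate 2, against 6.89% of coding genes.

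**Figure D3:**
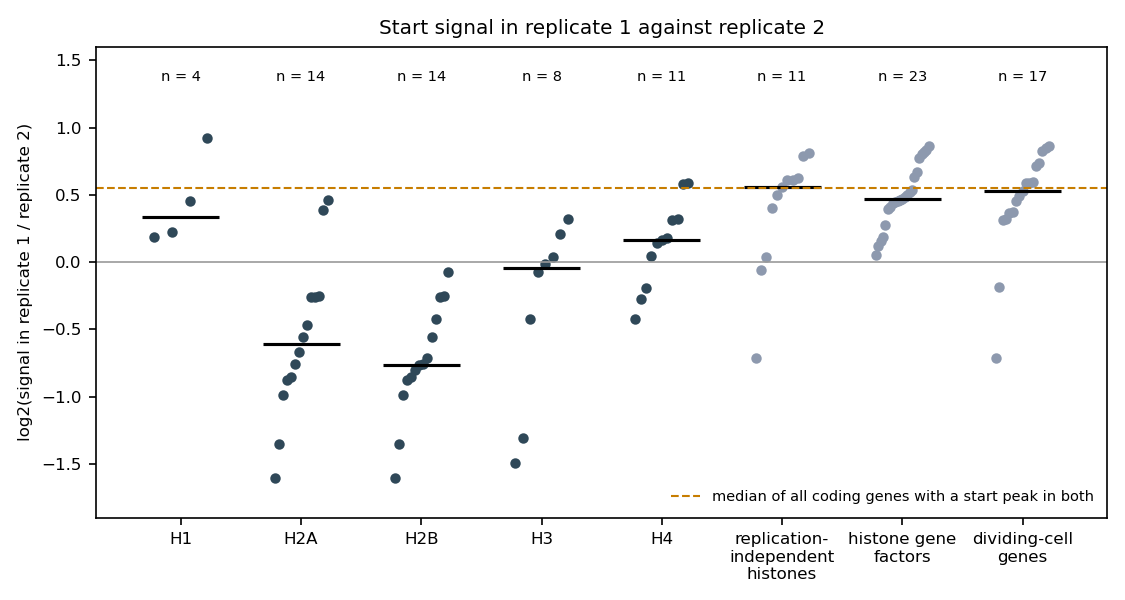
Log2 ratio of start signal in replicate 1 to replicate 2 for each gene with a start peak in both (points), with the median of each group (black bars), for the 5 histone types and 3 other gene lists. The dashed line is the median of all such coding genes, 0.55. H2A and H2B genes lie mostly below 0, while the other lists lie around the dashed line.

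Position of the peaks also differed between the replicates. In the 100 bases upstream of histone starts, 56.1% of bases lay in a peak in replicate 1 and 72.0% in replicate 2. In the 300 bases downstream the shares were 33.5% and 21.3%. All other coding promoters, with or without a peak, had 41.7% and 40.6% upstream and 20% and 18.1% downstream. Those with a peak in both had 86.2% and 85.5% upstream, and 38.4% and 35.5% downstream. The replicates lay closer there than at histone starts. For H2B genes the upstream shares were 49.8% and 77.8% and the downstream shares 37.6% and 17.0%. The 6 H1 genes had upstream shares of 53.3% and 82.5%, and H4 genes 80.2% and 82.5%. Signal was higher in replicate 1 at all 4 H1 genes with a start peak in both. Start signal reads the strongest peak on either side of a start, and its relation to the upstream shares was not tested. Of 52 genes with a peak in both replicates near these starts, the strongest peak had its middle upstream at 30 in replicate 1 and at 42 in replicate 2. The examples that follow were chosen after their values were seen, among genes with large moves of the strongest peak. The strongest peak of Hist3h2a had its middle 315 bp downstream of the start in replicate 1 and 115 bp upstream (-115) in replicate 2. Replicate 1 also had an upstream peak of 3.77 and replicate 2 a downstream peak of 3.48, so it differed which was stronger. For Hist1h3i the positions were 351 and -43, and for Hist1h2ak 162 and -38. Weaker peaks of replicate 1, with 0.707 at Hist1h3i and 0.842 at Hist1h2ak, overlapped the strongest peaks of replicate 2. Hist1h4k stayed at -17 in both, and Hist1h2ad went the other way, from -51 to 19.

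Base composition and copied sequence moved with this difference. Among other coding genes with start peaks in both replicates, signal was higher in replicate 2 at 57 of 231 (24.7%) where promoter GC was 45% or less, and at 363 of 8221 (4.42%) where it was over 50%. Among histone genes it was 22 of 24 (91.7%) and 1 of 9 (11.1%). From over 45% to 50% GC it was 8 of 14 histone genes (57.1%) and 94 of 569 other coding genes (16.5%). Median promoter GC also differed by type, with 41.3% for H3, 44.0% for H2A, 44.3% for H2B, 48.0% for H4 and 51.2% for H1. Of the bases near histone starts with every 36-base word copied elsewhere in the genome, 7.14% lay in a peak in replicate 1 and 3.0% in replicate 2. Of those with no word copied, 17.8% and 21.9% did. Where some but not all words were copied, 3133 of 10442 bases did in replicate 1 and 1746 (16.7%) in replicate 2. In replicate 1 this middle class had the highest share, so peak share did not fall steadily with copying there. In replicate 2 its share lay between those of the other classes. The GC groups were not split by histone type, nor the copied classes by position relative to the start. The part of base composition or of copied sequence in the replicate difference was not tested.

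The genes without a start peak fell into a few kinds. In the stricter lists 12 genes had none in either replicate, and 8 of them had none in the longer lists either. Hist1h1d is among the 8 by its GENCODE start, though peaks of both replicates lay over its RefSeq start. Of the 8, 4 form the copied pairs Hist1h2bq with Hist1h2ao and Hist1h2ap with Hist1h2br in the proximal block, where 100% of the 36-base words within 1 kb of the starts occur again in the genome and no interval with FDR under 0.05 was listed. Between these pairs lie Hist1h4m and Hist1h4n, with 95.2% and 94.9% of words copied. Hist1h4n had 0.378 in replicate 1 and none in replicate 2, and Hist1h4m none in either, while the longer list of replicate 2 held 0.335 at each. Hist2h3c1, with 80.1% copied, had none, and its duplicate Hist2h3c2, with 79.1%, had 1.03 in replicate 2 alone. No source used here tells how reads matching several places were treated, so a closed start and an unmapped one cannot be told apart at these genes.

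**Figure D4:**
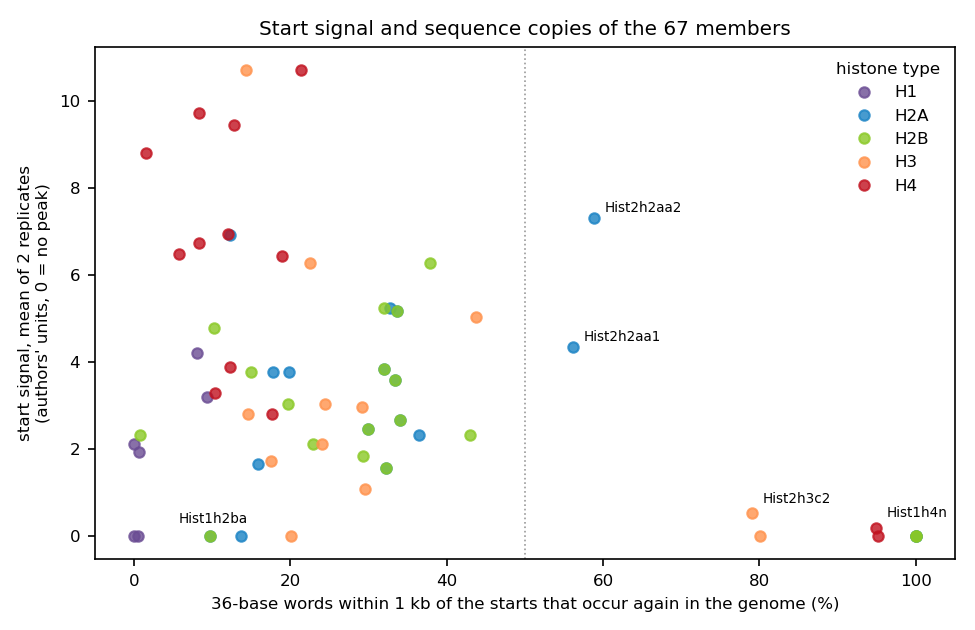
Mean start signal of the 2 replicates (authors' units, 0 where there was no peak) of each of the 67 genes against the share of 36-base words within 1 kb of its starts that occur again in the genome (%), coloured by histone type. H2A and H2B genes that share a promoter overlap as points. Right of the dotted line at 50% stand 10 genes, and 2 of them, Hist2h2aa1 and Hist2h2aa2, had a start peak in both replicates.

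Other starts at 0 had fewer copied words, from 0% at Hist1h1t to 20.1% at Hist1h3d. With at most 50% of words copied, 49 of 57 genes had a start peak in both replicates, and 2 of 10 with more. The median share of copied words was 22.9% among the 67 genes and 2.62% in every 50th other coding gene. The testis pair Hist1h2ba and Hist1h2aa (chromosome 13, 23933773 to 23934851), which encode H2B and H2A of male germ cells, had no peak of either list, no footprint and no listed FDR interval in either replicate, with 9.72% of words copied. Hist1h1t, the H1 gene of the testis, with no copied word, had 0.354 in the longer list of replicate 2 alone. Hist1h3d had 0.765 in the longer list of replicate 2, and Hist1h2ab 0.799 and 0.872 in the longer lists. The promoter of Hist1h2ba is shown because it holds CCAAT, ATTTGCAT and TATAAA letters like its open relatives, and it has no capitals since no footprint of either replicate overlapped it.

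Hist1h2ba (chr13:23934157-23934406, minus strand): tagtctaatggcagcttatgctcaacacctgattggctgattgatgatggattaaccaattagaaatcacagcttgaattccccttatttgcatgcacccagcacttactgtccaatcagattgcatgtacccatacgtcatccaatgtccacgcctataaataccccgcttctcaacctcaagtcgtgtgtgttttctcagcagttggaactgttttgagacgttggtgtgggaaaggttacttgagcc

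Genes with a start peak in a single replicate were few. Hist1h3b had 2.16 in replicate 1 and none in replicate 2, though the longer list held 1.14 there. Hist1h2bh had none in replicate 1 and 4.23 in replicate 2. That peak of replicate 2 did not lie over the Hist1h2bh start and is also the start peak of Hist1h3f, which had 1.71 and 4.23. Over the GENCODE start of Hist1h2bh, replicate 2 had a peak of 1.28 and the longer list of replicate 1 one of 0.942. Hist1h3b, Hist1h2bh, Hist1h4n and Hist2h3c2 make up the 4 genes of this kind.

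Between the genes, the proximal Hist1 block held most of the peaks. The clusters held 88 stricter peaks in replicate 1 and 87 in replicate 2, of which 67 and 66 were centred within 1 kb of a coding start. Another 5 and 4 lay inside coding genes, and 16 and 17 lay between genes. Of these, 15 and 14 were in the proximal block, 1 and 2 in the distal block, none in Hist2 and Hist4, and 0 and 1 in Hist3. Per Mb of DNA between genes this made 58.2 and 54.3 peaks in the proximal block, 5.55 and 11.1 in the distal block, and 9.98 and 12.5 over the genome. Footprints between genes numbered 60 in the proximal block and 7 in the distal block in each replicate, or 233 and 38.8 per Mb, against 43.1 and 47.4 over the genome. Of all peaks in the clusters 81.8% in replicate 1 and 78.2% in replicate 2 overlapped a peak of the other replicate, against 76.0% and 66.1% of all peaks.

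Transfer RNA genes lay under most of the peaks between genes. RefSeq places 31 tRNA genes in the proximal block and none in the other clusters. Peaks between genes overlapped one at 9 of 15 in replicate 1 and 11 of 14 in replicate 2, and 9 tRNA genes (29.0%) had a peak in both, against 165 of 377 (43.8%) outside the clusters. Signals were 4.36 and 2.70 at n-TIaat11, an isoleucine tRNA gene, 3.45 and 1.85 at n-TSaga8, of a serine tRNA, and 2.23 and 1.87 at n-TIaat7. Of the 9, only n-TTagt4, of a threonine tRNA, was higher in replicate 2 (0.785 and 2.36). Outside the clusters 15 of 165 were higher in replicate 2. The strongest peak between genes overlapped no tRNA gene. It lay 6698 bp from the start of Hist1h2ah, with 6.81 in replicate 1 and 3.53 in replicate 2, and 92 of its 220 bases were in footprints of both replicates, shown in capitals.

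peak between genes (chr13:22028761-22028980, plus strand): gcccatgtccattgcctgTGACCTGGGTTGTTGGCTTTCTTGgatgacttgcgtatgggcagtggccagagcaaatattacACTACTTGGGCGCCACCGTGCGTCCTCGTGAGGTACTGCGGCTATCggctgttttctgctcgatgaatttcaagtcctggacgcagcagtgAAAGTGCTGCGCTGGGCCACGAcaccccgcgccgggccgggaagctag

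**Figure D5:**
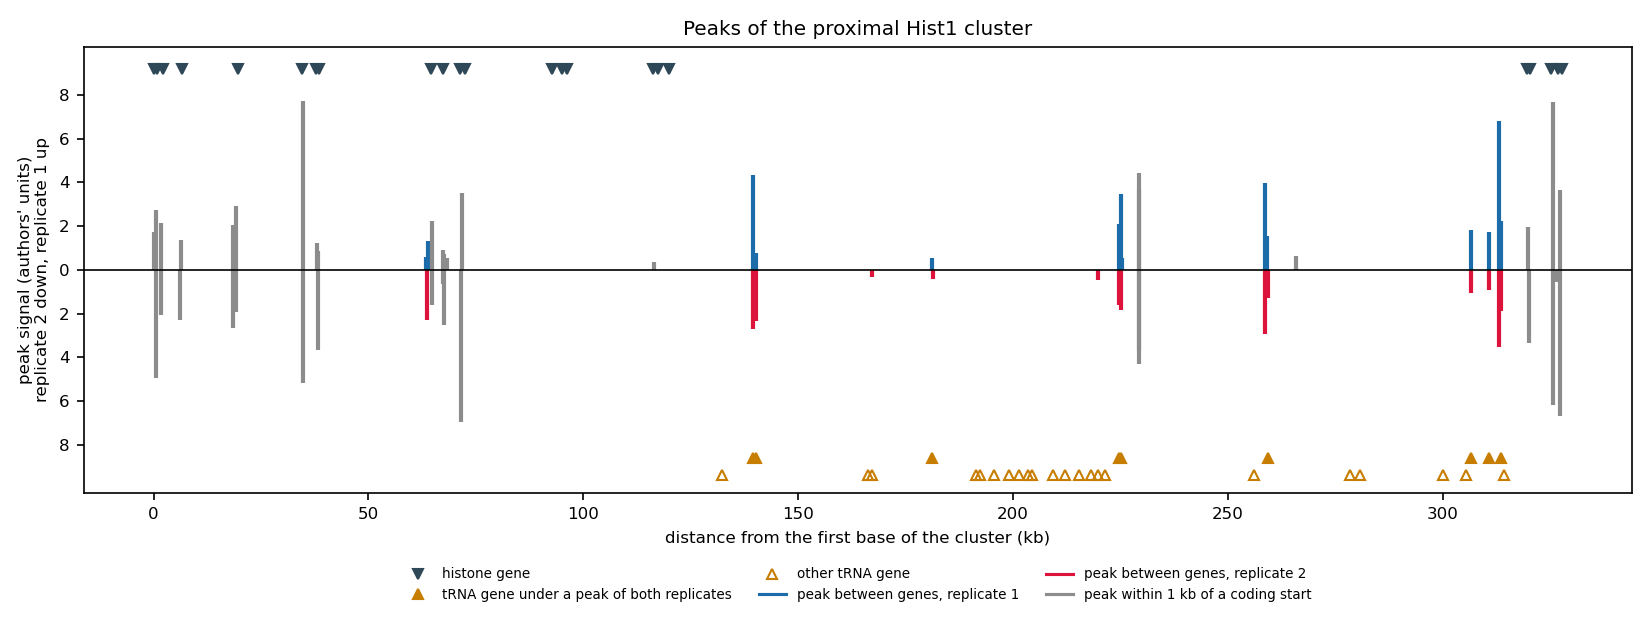
Signal of the stricter peaks (authors' units) along the proximal Hist1 block (kb from its first base), replicate 1 upwards and replicate 2 downwards, with peaks between genes in colour and those within 1 kb of a coding start in grey. Triangles mark the 23 histone genes at the top and the 31 tRNA genes at the bottom, the latter filled where a peak of both replicates overlapped. The peaks between genes stand over filled triangles at 9 tRNA genes, and the strongest, 6.81, stands beside one.

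Genes for variant histones and for factors of the histone loci were open nearly throughout. All 11 histone genes listed as replication-independent had a start peak in both replicates, against 55.9% of coding genes. They were led by the H2A variant genes H2afv (16.0 and 12.1), H2afx (11.6 and 12.1) and H2afz (11.3 and 7.67). Of 24 genes for factors of histone gene transcription and histone mRNA processing, 23 had one in both. Nfya, a subunit of NF-Y, had 18.2 and 12.9, Casp8ap2 13.8 and 12.7, and Npat 12.6 and 10.4. Hinfp had 9.26 and 8.29, Pou2f1 9.96 and 7.28, and Slbp, which encodes the stem-loop binding protein, 7.56 and 5.68. The exception, Gon4l, had 0.708 in replicate 2 alone. Of 18 genes of dividing cells 17 had a start peak in both, led by the replication helicase genes Mcm4 (13.8 and 10.7), Mcm5 (mean 11.1 ± 2.65) and Mcm7 (10.7 and 8.60), while Mki67 had 1.16 and 0.708. Median start signal was 7.24 and 5.52 for the histones listed as replication-independent. For the replication-dependent ones it was 2.28 and 3.60 with genes at 0 included, and 2.97 and 4.11 over genes with a peak. This comparison of levels was not tested.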

How the data were processed

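DNase-seq of 2 cerebellum libraries was read from files the authors deposited for each library separately. The deposited signal of each peak is a coverage measure, and its scale has no description in the labels or headers. The deposited false discovery rates (FDR, q-values) list cut-rate intervals under 0.05. Every peak of the stricter list holds a base under 0.001. The authors' footprints carry an FDR threshold of 0.01 and no strength. The build is mm10 per the labels, with no aligner or caller named. Neither the B6 nor the CAST allele was resolved.

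Intervals overlapped with at least 1 bp. Starts are those of GENCODE release 21. Promoters, tRNA genes and RefSeq starts are those of RefSeq on GRCm38.p6, which matched 62 of 67 genes. Clusters were split at gaps of 500 kb. Words of 36 bases were counted in the reference. Motifs were matched without mismatch on both strands. The site II core, the H1 box, the tRNA genes, the GC groups and 9 alternatives were chosen after seeing the data, and members and lists were chosen with earlier results of these data known. Named were the 20 genes with the highest mean start signal, all of Hist2, Hist3 and Hist4, those with a peak in 1 replicate alone, up to 3 of each type without any peak, and the 3 highest of each other list. Further genes were named after their values were seen. A marker list is not reported here. The counting was tested on simulated data. Python 3.11.15, pandas 2.3.3 and NumPy 2.4.6 were used.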

Additional observations from a re-analysis of the deposited data

How the results depend on the processing

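Of 44 alternatives tried, 41 left the value within the spread or 1.5 times the main count, and 3 did not. Peaks between genes numbered 16.5 per replicate on average, and 25.5 with the longer list. The share of cluster peaks found in both replicates was 80.0%, 85.3% for peaks at or above the median signal, and 63.4% when at least 0.5 of both peaks had to overlap. The cause was not tested. Genes with a start peak in both replicates numbered 51 (76.1%, against 55.9% of coding genes), 44 with peaks at or above the median signal (65.7%, against 49.7%), 56 within 2 kb (83.6%, against 57.6%) and 41 with each peak counted for the nearest start (61.2%, against 51.8%). Taken alone, each replicate gave 53. The H4 cores covered in both replicates numbered 6 of 11, and 5 when the core had to lie wholly inside a footprint. No paired analysis was possible because there is 1 group. The number of libraries, 2, limits every comparison between replicates, and read depth is known here only through the steps of the signal.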
